A study of Solanum lycopersicum with 9 samples.

Results

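The leaf that stayed on partly defoliated tomato plants was compared with matching leaves of untreated plants, using 6 of the 9 RNA libraries of the series, 3 per group. The 6 libraries were chosen by their treatment labels and not by a measured value. Earlier results of these data were known when the comparison was chosen. All plants were wild-type Solanum lycopersicum of the processing cultivar M82, started in a growth chamber and later grown in greenhouse pots. In the defoliation group every leaf but the one to be sampled had been cut off at the stem, 1 week after the first flowers opened, and the control group was left intact. The treatment label of the defoliation group also carries the number 48, whose unit is not stated, and that of the control group carries none, so what the number marks cannot be told apart from defoliation. The other 3 libraries, from plants whose other leaves were wrapped in foil, give values beside those described here. They also entered the choice of genes to test, the scaling and the estimate of the spread between replicates. Their treatment labels carry the number 48 as well.

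A mature leaf is a source organ: it fixes carbon by photosynthesis, stores part of it as starch during the day and exports sucrose through the phloem to growing leaves, roots, flowers and fruit, which are sinks. Removing leaves takes away source tissue and leaves the sinks in place, and it wounds the plant, which in tomato is known to set off jasmonate signalling beyond the cut. Sugar supply, wounding and a changed light environment within the canopy are each known to alter leaf transcripts, and defoliation combines all of them.

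The genes in the count table are given by Solyc identifiers, the locus names of the tomato genome project, and 0 of 23195 of them matched the reference gene table, which lists tomato genes under other names. Neither source pairs an identifier with a gene product, so none is given a function here, and the labelled cell type, leaf mesophyll, was not checked against markers. The digits after "Solyc" give the chromosome by the naming system. Total counts were 25202105 to 27988818 in the control libraries and 26058491 to 31012772 in the defoliation libraries. Each control library held 599 to 711 genes without a count and each defoliation library 334 to 563. In a principal component analysis of log2 CPM (counts scaled to library size) over these 6 libraries, the first component carried 61.5% of the variance. It placed the control libraries at -51, -49.5 and -73.2 and the defoliation libraries at 49.8, 42.4 and 81.5. On this component control replicate 3 and defoliation replicate 3 thus stood farthest apart. The second component (14.8%) placed control replicate 3 at -46.3, away from control replicates 1 and 2 at 32.8 and 29.1. Defoliation replicates 1, 2 and 3 stood at -28.7, -2.11 and 15.2 on it.

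Of 20480 genes tested, 3863 were higher in the remaining leaf (18.9%) and 3152 were lower (15.4%), which is 34.3% in both directions, by edgeR's quasi-likelihood test with Benjamini-Hochberg adjusted p below 0.05. The median log2 fold change over all tested genes was -0.02 with TMM factors, which centre the bulk of genes near 0, and -0.07 with upper-quartile factors. Among the genes called higher, the log2 fold change ran from 0.50 at the 10th percentile to 2.16 at the 90th. Among those called lower the same percentiles were -1.58 and -0.44. The split between directions depended on scaling, with 3537 genes higher and 3567 lower under upper-quartile factors. All 3 defoliation libraries lay above all 3 control libraries for 26.4% of tested genes and below them for 25.5%. Without defoliation replicate 3 the number of genes called lower was 2077.

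Described by library are, in each direction, the 2 genes with the smallest p-values among those whose groups did not overlap and whose higher group averaged at least 5 CPM, so their separation follows from the choice. Solyc06g072660.3, on chromosome 6, was measured at 4.32, 4.96 and 4.58 CPM in control leaves and at 22.6, 26.8 and 34.9 CPM after defoliation. Its defoliation values were spread more widely than its control values. The means of 4.62 ± 0.32 and 28.1 ± 6.23 CPM (SD, n = 3) differed 6.08-fold, with a log2 fold change of 2.60 ± 0.17 (SE, edgeR adjusted p = 0.000245). Solyc10g008320.1, on chromosome 10, was a scarcer transcript, at 0.936, 1.31 and 1.28 CPM in control leaves and at 8.77, 11.7 and 15.2 CPM after defoliation. Like Solyc06g072660.3, it passed the 5 CPM minimum through the defoliation group alone. The third defoliation library was again the highest. The means of 1.17 ± 0.206 and 11.9 ± 3.21 CPM (SD, n = 3) differed 10.1-fold, with a log2 fold change of 3.34 ± 0.24 (SE, edgeR adjusted p = 0.000267).

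Both genes that led the decreases were abundant in control leaves and varied little between replicates, traits that a choice by smallest p-value favours. Solyc01g096320.3, on chromosome 1, had the smallest p-value of all tested genes. Its level was 124, 126 and 120 CPM in control leaves and 17.0, 14.5 and 17.1 CPM after defoliation. Its defoliation level was 7.60-fold lower on average, with a log2 fold change of -2.93 ± 0.16 (SE, n = 3, edgeR adjusted p = 7.9e-05). Solyc12g010130.1, on chromosome 12, stood at 275, 282 and 286 CPM in control leaves and at 104, 95.2 and 89.3 CPM after defoliation. The change was smaller than that of Solyc01g096320.3 and all replicates showed it, 2.92-fold on average, with a log2 fold change of -1.55 ± 0.11 (SE, n = 3, edgeR adjusted p = 0.000267).

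In the leaves of foil-shaded plants these genes differed from the same control libraries in the directions seen after defoliation. Solyc06g072660.3 stood at 21.4, 21.7 and 19.1 CPM and Solyc10g008320.1 at 8.14, 9.73 and 8.91 CPM. Solyc01g096320.3 stood at 44.3, 47.9 and 32.0 CPM, between its control and its defoliation levels and overlapping neither. Solyc12g010130.1 stood at 130, 138 and 132 CPM, also between the other groups. Both comparisons share their control libraries, so their likeness is not independent. The genes were also chosen by p-values from a fit whose spread included the shading libraries. How many of all tested genes behaved alike in both treatments is not given here. Both treated groups also carry the number 48 in their labels and the control group does not, so what it marks cannot be told apart from treatment.

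**Figure D1:**
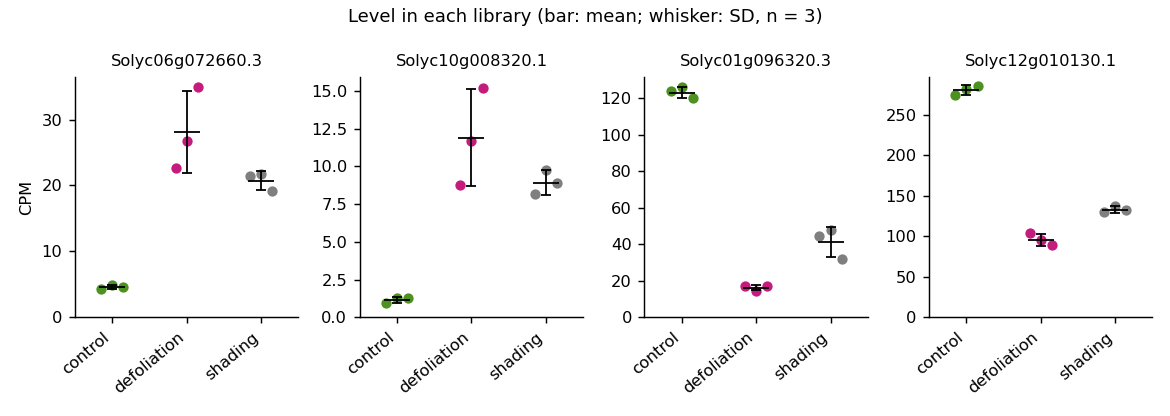
CPM of the 2 genes with the smallest p-values among those higher after defoliation and the 2 among those lower, one point per library, with the mean (bar) and SD (whisker, n = 3) of each group. The genes were chosen for groups that do not overlap. For both genes that were higher the third defoliation library is the highest.

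How often a gene was called depended on its abundance, here the mean CPM over the 6 libraries. Of 2476 genes under 1 CPM, 7.31% were called higher and 4.00% lower. The filter can keep a gene this scarce through the group where it is high, shading included. Calls in this class therefore partly follow from the filter. The shares were 16.0% and 11.3% of 6870 genes between 1 and 10 CPM, and 22.3% and 19.9% of 9519 genes between 10 and 100 CPM. They reached 29.8% and 23.4% of 1518 genes between 100 and 1000 CPM. Under 1 CPM, leaving out any 1 of the 6 libraries lowered both shares, to 3.61% to 5.44% higher and 1.78% to 2.26% lower, lowest without defoliation replicate 3. Without that library the share lower between 1 and 10 CPM was 7.19%. The median standard error of the log2 fold change was 0.562 in the scarcest class and 0.276 in the next, against 0.152 to 0.156 in the other 3, so smaller changes could be called among abundant genes. Called genes had median log2 fold changes of 2.07 (higher) and -1.71 (lower) under 1 CPM, 1.27 and -1.02 between 1 and 10 CPM, 0.84 and -0.67 between 10 and 100 CPM, and 1.03 and -0.68 between 100 and 1000 CPM. At 1000 CPM or more they were 0.79 and -0.6, the smallest in each direction. Above 10 CPM the medians thus did not fall steadily with abundance.

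The most abundant transcripts had another balance. Of 97 genes at 1000 CPM or more, 12 were called higher (12.4%) and 24 lower (24.7%). Their median log2 fold change, called or not, was -0.11. The 100 most abundant genes, which include these 97, had 12 called higher and 27 lower. Their log2 fold changes ran from -1.21 to 1.74, with a median of -0.16. Without control replicate 2 the shares at 1000 CPM or more were 11.3% higher and 14.4% lower, a smaller excess of lower calls. Without control replicate 1 they were 8.25% and 24.7%. These 100 genes held 27.8%, 30.1% and 28.0% of the counts of tested genes in the control libraries and 27.8%, 28.3% and 23.8% after defoliation. Defoliation replicate 3 was the lowest, and the other defoliation libraries lay within the control range.

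**Figure D2:**
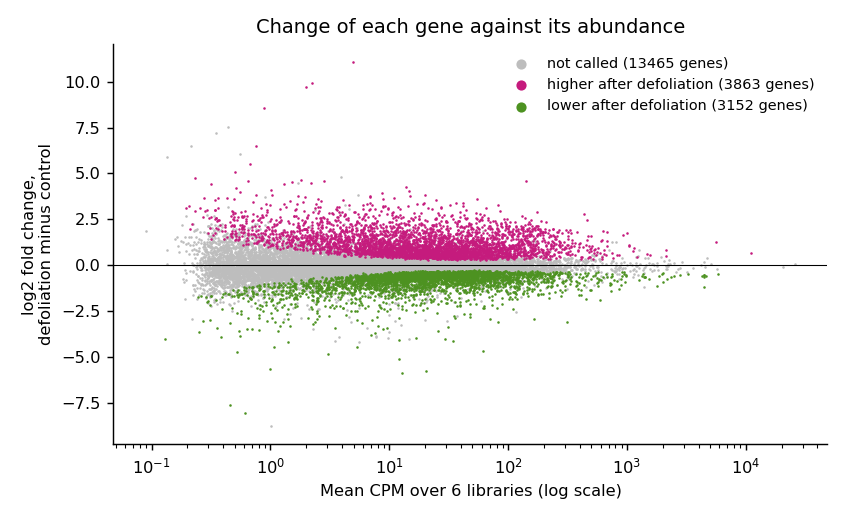
Log2 fold change of each tested gene (defoliation minus control) against its mean CPM over the 6 libraries on a log axis, coloured by call. The 3863 genes called higher reach larger changes than the 3152 called lower, and the band of genes not called narrows as abundance grows.

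**Figure D3:**
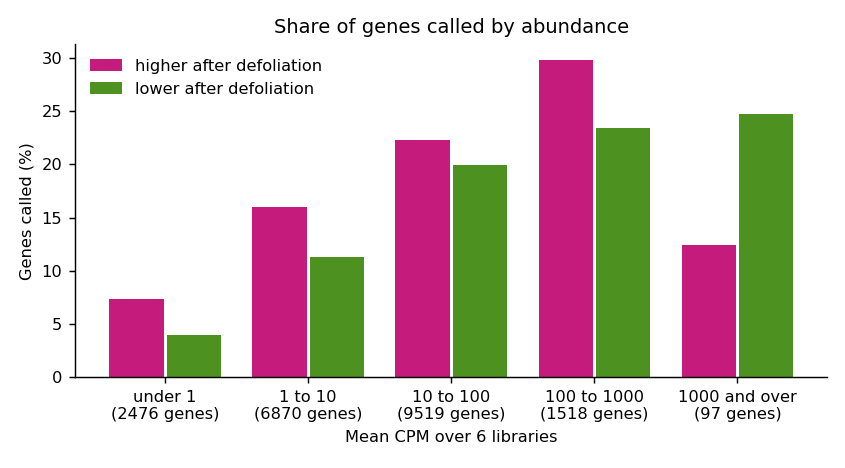
Share of genes called higher or lower after defoliation in 5 classes of mean CPM. Higher calls outnumber lower calls in each class below 1000 CPM (with upper-quartile factors not between 10 and 100 CPM, at 20.3% and 22.8%), and lower calls outnumber higher ones among the 97 genes at 1000 CPM or more.

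The called genes held a large part of the counts of tested genes. The 3863 genes called higher held 15.1%, 15.1% and 13.5% of the counts of tested genes in the control libraries and 28.2%, 25.5% and 32.6% in the defoliation libraries. The 3152 genes called lower held 28.9%, 27.9% and 29.6% in control leaves and 17.0%, 18.5% and 15.7% after defoliation. The direction of these sums follows from how the genes were chosen, and only their size is described. Genes that were not called held 56.1%, 57.0% and 57.0% of counts in control leaves and 54.9%, 56.0% and 51.8% after defoliation. Shares of counts are relative amounts, and bulk RNA cannot tell fewer cells of a type from less RNA per cell.

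**Figure D4:**
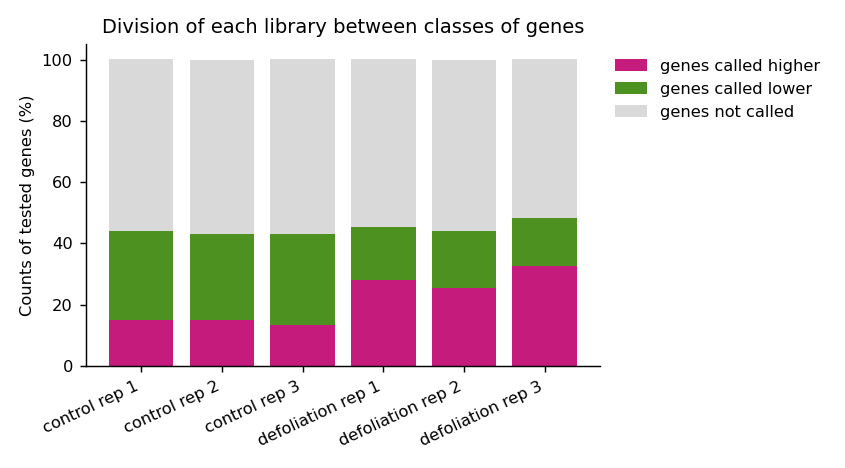
Division of the counts of tested genes in each library between genes called higher, called lower and not called. Genes called higher take 13.5% to 15.1% of counts in control leaves and 25.5% to 32.6% after defoliation, with the largest share in defoliation replicate 3.

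The defoliation replicates lay at unequal distances from control. The 3863 genes called higher exceeded the control mean by a median of 0.89, 0.75 and 1.11 log2 units in defoliation replicates 1, 2 and 3 (log2 of CPM plus 0.5). The 3152 genes called lower stood at -0.72, -0.62 and -0.80. Replicate 3 was the highest of the 3 libraries for 73.1% of genes called higher and the lowest for 56.6% of genes called lower. Replicate 2 was the most distant for 6.47% and 12.2%. Among genes that were not called, replicate 3 was likewise the most distant most often, for 49.1% of 6129 genes fitted above control and 43.8% of 7336 fitted below. The median SD of log2 CPM between replicates was 0.215 after defoliation and 0.199 in control leaves.

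Few genes of the deposited count table were switched between undetected and detected. That table holds 23195 genes, against 41476 in the reference gene table, and genes it leaves out could not be counted. Without a count in any control library were 156 genes of all those deposited, and 42 of them had at least 1 count in every defoliation library. In the other direction 46 genes had none in any defoliation library, and 10 of them had at least 1 in every control library. These were scarce transcripts, with a median of 4.5 and 5.17 counts per library where they were seen. At 10 or more counts in each library there were 3 genes detected in defoliation libraries alone and 2 in control libraries alone. The 3 counts taken as the floor of detection correspond to 0.0931 to 0.115 CPM in these 6 libraries, and cover counting error only.

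Changes were spread over all 12 chromosomes. The share of tested genes called higher lay between 17.2% on chromosome 2 and 20.6% on chromosome 11, near the 18.9% of all genes. The share called lower lay between 12.7% on chromosome 9 and 16.5% on chromosomes 1 and 7, with 15.4% over all genes. The 141 tested genes whose identifiers assign them to no chromosome had 12.1% higher and 10.6% lower.

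At a finer scale genes next to each other in identifier order were called in one direction more often than genes farther apart. Of the tested neighbours of a gene called higher, 24.4% were themselves higher, against 18.9% of all 20339 genes with a chromosome. For genes called lower the share was 19.3%, against 15.4%. At 2 places the shares were 20.7% and 16.3%, and at 10 places 18.6% and 16.7%. In all, 938 adjacent pairs were both higher, 606 were both lower and 1122 went in opposite directions, of 20327 pairs. At 10 places the counts were 714, 522 and 1163 of 20219 pairs. Unbroken runs of 5 or more tested genes called higher numbered 14, with 73 genes, and those called lower 5, with 26 genes. The longest run had 6 genes in each direction. How many such runs the shares of called genes alone would give was not tested. Reads shared between near-identical neighbouring copies, and between overlapping genes in libraries without strand, can tie neighbours together, and their part in these shares was not tested.

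**Figure D5:**
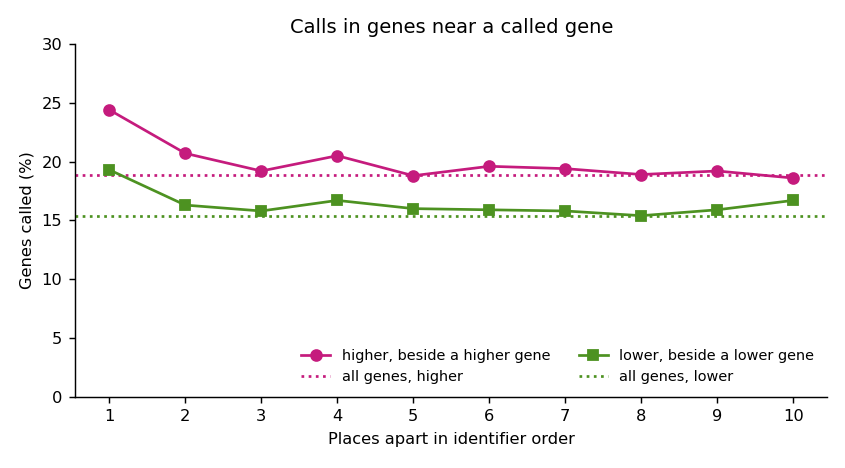
Share of genes called higher (or lower) among those 1 to 10 places from a gene called higher (or lower), in identifier order along a chromosome, with dotted lines for all genes with a chromosome. Directly adjacent genes stand at 24.4% and 19.3%, above the dotted lines at 18.9% and 15.4%, and at 2 places the shares are 20.7% and 16.3%.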

How the data were processed

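The authors deposited one table of RSEM expected counts, which are whole numbers for each gene and library. Per the submitters' processing notes the tools were Trim Galore, STAR, RSEM and DESeq2; their versions, the build and the annotation used were not given in the sources used here. Strand is lost, since the TruSeq RNA kit that the labels' protocols name does not mark it. From these counts, filterByExpr by group kept 20480 of 23195 genes (88.3%), and edgeR 4.0.16 (R 4.3.3) fitted all 9 libraries with TMM factors, a coefficient per group and robust quasi-likelihood estimation (common coefficient of biological variation 0.23). The Benjamini-Hochberg adjustment ran over every tested gene, and standard errors are the log2 fold change divided by the square root of F. CPM uses TMM-scaled library sizes.

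The comparison, its tests and its lists were chosen with earlier results of these data known. Gene lists written by locus were not used, because no identifier could be paired with a product. Named genes are, per direction, the 2 with the smallest p among called genes with at least 5 mean CPM in the higher group and no overlap between groups. The series' design text calls the replicates biological. Alternatives were RLE and upper-quartile scaling, other filters, the 2 groups alone, a replicate block, DESeq2 1.42.0, limma-voom (limma 3.58.1) and leaving out each of the 6 libraries; the newer quasi-likelihood method and leaving out shading replicate 3, the shallowest library, were added after seeing the data.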

Additional observations from a re-analysis of the deposited data

How the results depend on the processing

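The 4 named genes kept their direction and their call under each of the 16 alternatives, with log2 fold changes of 2.42 to 2.74 for Solyc06g072660.3, 3.12 to 3.52 for Solyc10g008320.1, -2.98 to -2.85 for Solyc01g096320.3 and -1.60 to -1.49 for Solyc12g010130.1, and adjusted p of at most 0.00223 for each. With every library kept, DESeq2 called 4153 genes higher and 3539 lower, limma-voom 3840 and 3246, and the newer quasi-likelihood method 3980 and 3313. Without shading replicate 3 in the shared fit the counts were 4030, 3273 and 7303 in all. Leaving out 1 control or defoliation library gave 2947 to 3527 genes higher, 2077 to 2528 lower and 5024 to 6055 in all, fewest in each case without defoliation replicate 3 (2077 lower). The cause was not tested. A replicate block in the fit left 3427 higher and 2633 lower calls. For same-numbered control and defoliation libraries, deviations from the group means correlated at -0.153, 0.00725 and -0.187 across genes. Differently numbered libraries gave -0.0889 to 0.192. Deviations within a group of 3 libraries are tied to each other, so these values cannot decide whether the numbers pair the samples. The labels name no pairing, and the main fit used none. Upper-quartile factors shifted the median of all genes to -0.07 and gave 49.8% of calls as higher, against 55.1% with TMM factors. The share of neighbours called higher beside a higher gene ranged from 17.9% (without defoliation replicate 3, where 14.2% of all genes were higher) to 26.0% (at least 1 CPM in at least 3 libraries, where 20.8% were). For lower genes it ranged from 13.1% (again without defoliation replicate 3) to 21.1% (upper-quartile factors, where 17.5% of all genes were lower). The share of genes under 1 CPM called higher ranged from 3.61% to 13.1%, and that called lower from 1.78% to 6%. Both upper values came with the filter of at least 1 CPM in at least 3 libraries. As with the main filter, a gene of this class can pass that filter through the group where it is high. These shares also cover another set of genes.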
